A study of Mus musculus with 16 samples.

Results

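The genes described here are 10 parts of the NF-kB system of mouse cells, 4 subunits of the transcription factor and 6 of its inhibitors and feedback regulators. They were chosen by gene symbol, as Nfkb1, Nfkb2, Rela, Relb, Nfkbia, Nfkbie, Nfkbiz, Tnfaip3, Tnip1 and Birc3, out of 48432 gene identifiers in the table, and the rule uses no measured value. RNA was sequenced from myotubes of C2C12, a line of mouse myoblasts long kept in culture, whose cells fuse to form contracting fibres. Cells were differentiated for 5 days in medium with 2% horse serum and then received electrical pulse stimulation (EPS) or none (control), with 4 libraries in each group. EPS consisted of 6 ms pulses at 1 Hz in a field of 2.75 V/mm, a duty cycle of 0.6%, with the polarity switched at 0.5 Hz, and how long it lasted is not stated in the labels. The series title concerns secretion of GDF15 by contracting muscle, so the comparison asks which transcripts differ in stimulated myotubes. Every library came from the same cell line, which limits it as a model of muscle tissue.

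NF-kB is a family of dimeric transcription factors held in the cytoplasm by inhibitory IkB proteins. Signals from cytokine and pattern recognition receptors activate the IKK kinase complex, IkB proteins are phosphorylated and degraded, and the freed dimers enter the nucleus. Among the genes they activate are those of their own inhibitors, which close negative feedback loops. In skeletal muscle the pathway is known for its part in inflammation and wasting and for holding back differentiation of myoblasts.

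RefSeq promoter entries (GRCm38.p6) were found for 7 of the 10 genes. Each line gives the 120 bases before the start annotated in that entry, 5′ to 3′ along the gene and in lower case. The stretch next to each start can thus be read beside the expression values. These starts can differ from the gene bounds used elsewhere here. By those bounds the stretches of Nfkb2 and Tnfaip3 lie inside the gene, and those of Rela and Birc3 cross its edge. They are reference sequence, and nothing measured here bears on binding to them.
Rela (chr19:5637421-5637540, plus strand): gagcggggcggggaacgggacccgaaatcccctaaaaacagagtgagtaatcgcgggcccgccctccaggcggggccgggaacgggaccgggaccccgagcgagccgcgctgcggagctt
Nfkb2 (chr19:46304617-46304736, plus strand): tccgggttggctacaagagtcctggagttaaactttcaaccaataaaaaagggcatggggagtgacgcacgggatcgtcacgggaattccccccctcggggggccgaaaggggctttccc
Nfkbia (chr12:55492648-55492767, minus strand): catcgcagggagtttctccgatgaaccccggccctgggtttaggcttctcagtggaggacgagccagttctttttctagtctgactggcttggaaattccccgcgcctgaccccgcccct
Nfkbie (chr17:45555580-45555699, plus strand): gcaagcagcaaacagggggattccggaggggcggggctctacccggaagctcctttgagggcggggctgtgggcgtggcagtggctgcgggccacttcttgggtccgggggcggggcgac
Tnfaip3 (chr10:19015411-19015530, minus strand): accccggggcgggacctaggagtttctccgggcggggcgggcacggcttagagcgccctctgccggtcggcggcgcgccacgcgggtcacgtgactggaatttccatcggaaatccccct
Tnip1 (chr11:54962941-54963060, minus strand): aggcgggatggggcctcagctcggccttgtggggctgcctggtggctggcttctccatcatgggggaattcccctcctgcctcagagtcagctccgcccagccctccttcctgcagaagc
Birc3 (chr9:7873171-7873290, minus strand): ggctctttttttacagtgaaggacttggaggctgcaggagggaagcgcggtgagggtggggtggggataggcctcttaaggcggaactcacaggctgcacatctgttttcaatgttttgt
The G and C content of these stretches was 71.7% in Rela, 57.5% in Nfkb2, 59.2% in Nfkbia, 71.7% in Nfkbie, 70.8% in Tnfaip3, 66.7% in Tnip1 and 53.3% in Birc3, the lowest of the 7.

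Libraries EPS 1 to 4 held 20.1, 14.7, 18.1 and 20.7 M (mega) fragments, and control libraries 1 to 4 held 18.6, 0.354, 12.6 and 20.7 M. Control replicate 2 is thus shallow, and it lay apart from the others on the first principal component (68.4% of the variance). There, 3 fragments, the limit that a count of 0 allows, correspond to 8.52 CPM (counts per M fragments, scaled as below), against 0.139 to 0.241 CPM in the 7 deep libraries. These limits cover counting error only. EPS replicates 1 and 2 stood apart on the second component (20.2%), with scores of -46.38 and -88.11 against -1.63 to 45.25 elsewhere. Summed markers of myotubes, 11 of 12 with an estimate, were at 15333 to 21829 CPM in EPS and 26808 to 29445 CPM in control. In edgeR 0 of the 11 passed, and 8 had an unadjusted p under 0.05, against 18.5% of all tested genes. With the block described below, 8 of the 11 passed as lower in EPS, where 4.78% of all genes did. In bulk RNA, fewer cells of a type and less RNA per cell cannot be told apart. Levels below are CPM after TMM scaling, listed for replicates 1 to 4.

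None of the 9 genes that could be tested passed an adjusted p of 0.05 in edgeR's quasi-likelihood test, in either direction. Across the 13987 genes tested, 3.06% passed (2.30% higher and 0.758% lower in EPS), so 0 of 9 is close to the background. At an unadjusted p under 0.05 there were 2 of the 9, Nfkbia and Nfkbiz, against 18.5% of all genes. DESeq2 also called 0 of the 9, where it called 633 higher and 294 lower over all genes. When the replicate number was added as a block, 1 of the 9 passed, Nfkbiz, against 12.1% of all genes (7.31% higher and 4.78% lower in EPS). The median log2 fold change was 0.11 over the 9 genes and 0.01 over all tested genes.

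**Figure D1:**
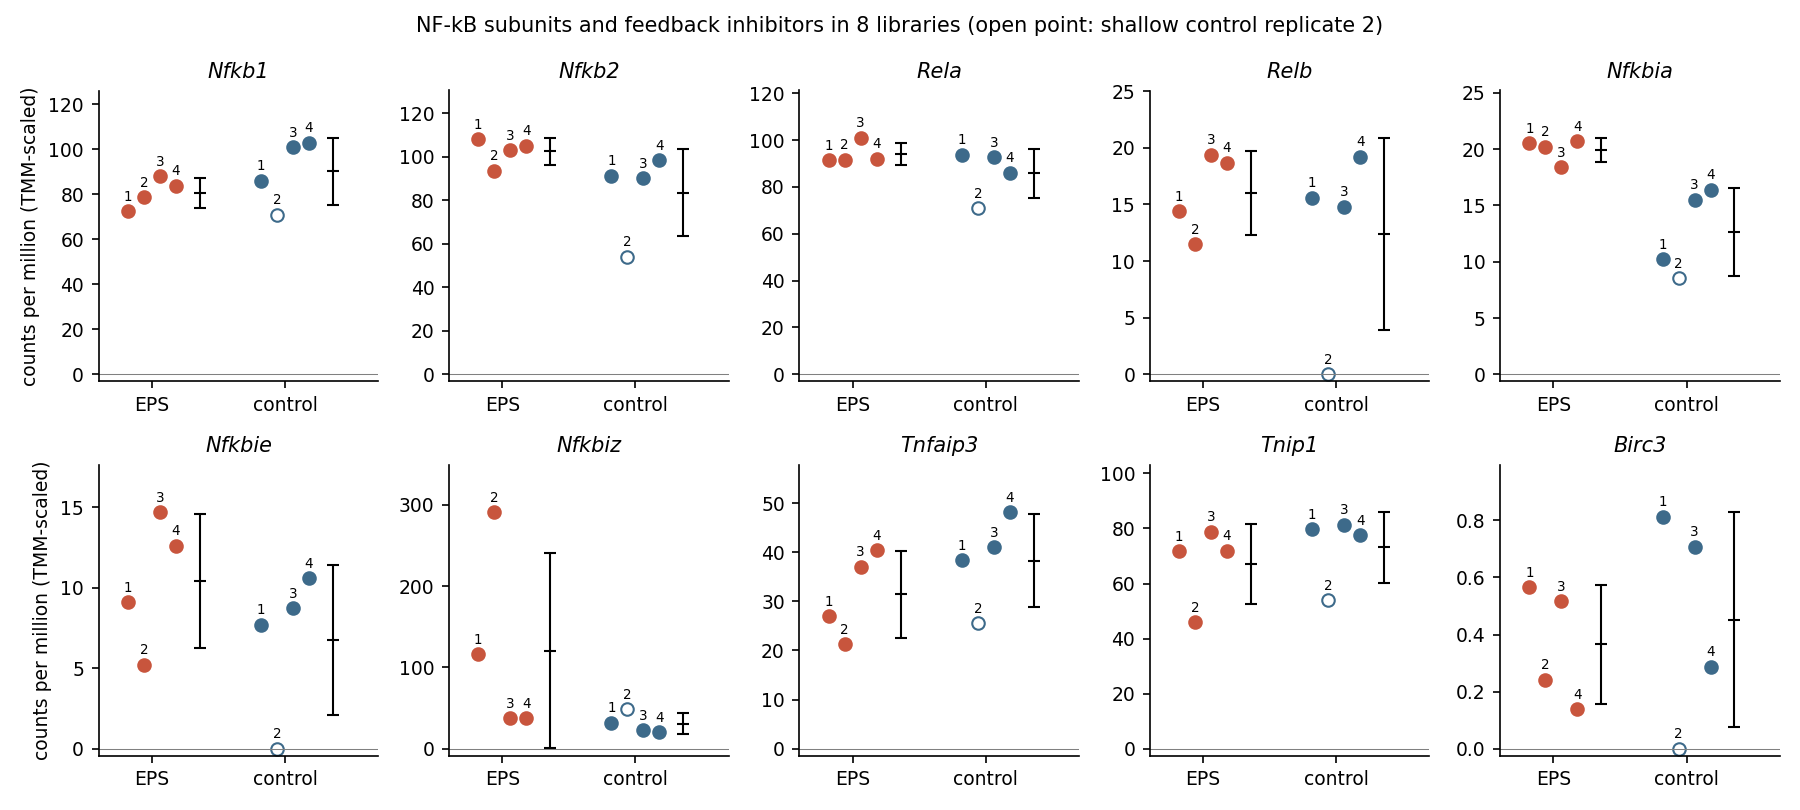
CPM of the 10 genes in each library, EPS left and control right, with the replicate number above each point and the mean ± SD (n = 4) as a bar beside each group. The open point is the shallow control replicate 2. EPS lies wholly above control for Nfkbia, with 18.4 to 20.7 CPM against 8.52 to 16.4 CPM, the 8.52 CPM resting on 3 fragments. Nfkbiz reaches 291 CPM in EPS replicate 2.

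Of the subunits, Rela, which encodes the main transactivating subunit p65, did not pass the test. It was at 91.4, 91.6, 101 and 92.1 CPM in EPS and at 93.8, 71.0, 92.7 and 86.1 CPM in control libraries. The ranges overlap, and the lowest value is that of the shallow library. The log2 fold change was 0.11 (SE 0.14, 95% interval -0.20 to 0.42, edgeR adjusted p = 0.735).

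Nfkb1 encodes the precursor p105, which inhibits NF-kB and is processed to the subunit p50. Its level was 72.5, 78.7, 88.0 and 83.9 CPM in EPS and 86.1, 71.0, 101 and 103 CPM in control libraries. In the 3 deep pairs of equal number EPS was the lower, by a log2 difference of -0.25, -0.20 and -0.30, and in the pair with the shallow library it was the higher, by 0.15. The fit gave -0.19 (SE 0.16, interval -0.54 to 0.15, edgeR adjusted p = 0.548). Replicates 3 and 4 alone gave -0.26 with an adjusted p of 0.0462 in edgeR, where 16.1% of all genes passed.

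Nfkb2 encodes p100, the inhibitory precursor of p52 in the non-canonical pathway, which dimerises with RelB. The gene (ENSMUSG00000025225) lies on the plus strand of chromosome 19, positions 46304320 to 46312385 of mm10. It was at 108, 93.5, 103 and 105 CPM in EPS and at 91.2, 54.0, 90.2 and 98.3 CPM in control libraries. EPS was higher in 4 of 4 pairs, by 0.24, 0.79, 0.19 and 0.10 on the log2 scale, and the groups overlap at EPS replicate 2. The 0.79 of pair 2 rests on 19 fragments in the shallow control. The log2 fold change of 0.24 (SE 0.17, interval -0.14 to 0.63) had an edgeR adjusted p of 0.494. The gene shares 299 exon bases with Psd on the opposite strand, itself at 2.26 CPM ± 0.493 in EPS and 2.32 CPM ± 0.608 in control (SD, n = 4), and 531 with an uncharacterised long non-coding RNA. Whether counting used strand is not stated in the labels.

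Relb, the partner of p52, was at 14.4, 11.5, 19.4 and 18.7 CPM in EPS and at 15.6, 0, 14.8 and 19.2 CPM in control libraries. The 0 in control replicate 2 allows up to 8.52 CPM, and the deep libraries of both groups overlap. Its log2 fold change was 0.08 (SE 0.34, interval -0.67 to 0.83, edgeR adjusted p = 0.934). Without that library it was -0.05 (adjusted p = 0.905), without EPS replicate 3 -0.04 and without EPS replicate 4 -0.02, so its sign depends on single libraries.

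The IkB inhibitors held both genes with an unadjusted p under 0.05. Nfkbia encodes IkB alpha, the inhibitor that is degraded first upon signalling and resynthesised by NF-kB. The gene (ENSMUSG00000021025) lies on the minus strand of chromosome 12, positions 55489410 to 55492647 of mm10. It was at 20.5, 20.2, 18.4 and 20.7 CPM in EPS and at 10.2, 8.52, 15.5 and 16.4 CPM in control libraries. Every EPS library lay above every control library, an arrangement that 9.32% of all tested genes share. No gene of the 9 lay below every control library in all EPS libraries, as 4.83% of tested genes did, or below the 3 deep ones, as 11.0% did. The EPS libraries differ little among themselves, and the spread is in the controls, where replicates 1 and 2 are the low ones. The value of control replicate 2 rests on 3 fragments, so its place and the difference of pair 2 are uncertain. Against the 3 deep controls alone EPS was also wholly above, as in 13.8% of all tested genes. The log2 fold change was 0.55 (SE 0.21, interval 0.10 to 1.01, unadjusted p = 0.0224), and the edgeR adjusted p was 0.184, or 0.0764 with the block. By pair, EPS was higher by 1.00, 1.23, 0.25 and 0.33 on the log2 scale. In 22 alternatives the log2 fold change stayed positive, from 0.29 to 1.01, and in none did it pass (lowest adjusted p 0.0577).

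Nfkbie, which encodes IkB epsilon, a slower inhibitor that is also an NF-kB target, was at 9.11, 5.21, 14.7 and 12.6 CPM in EPS. Control libraries were at 7.69, 0, 8.74 and 10.6 CPM. EPS was higher in all 3 deep pairs, by 0.24, 0.74 and 0.25 on the log2 scale, but EPS replicate 2 was below every deep control. The log2 fold change was 0.31 (SE 0.39, interval -0.55 to 1.17, edgeR adjusted p = 0.718).

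Nfkbiz encodes IkB zeta, an atypical nuclear IkB protein that is induced by interleukin-1 and Toll-like receptor ligands and coactivates a subset of NF-kB targets. The gene (ENSMUSG00000035356) lies on the minus strand of chromosome 16, positions 55811375 to 55838899 of mm10. It was at 116, 291, 37.3 and 37.3 CPM in EPS and at 31.9, 48.3, 22.7 and 20.4 CPM in control libraries. Each EPS library lay above the 3 deep controls, as in 13.8% of all tested genes, and only the shallow control, whose value rests on 17 fragments, overlaps. EPS replicate 2 is far the highest and replicate 1 next, while replicates 3 and 4 lie nearer to the controls, above the 3 deep ones and below the shallow one. The mean was 120.2 CPM ± 119.5 in EPS and 30.8 CPM ± 12.7 in control (SD, n = 4). By pair, EPS was higher by 1.85, 2.59, 0.71 and 0.87 on the log2 scale.

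The fit of Nfkbiz gave a log2 fold change of 2.13 (SE 0.65, interval 0.70 to 3.56, unadjusted p = 0.00758), which missed the threshold in edgeR with an adjusted p of 0.109. With the replicate block it was 1.36 (SE 0.24, interval 0.82 to 1.90), or 2.57-fold, with an edgeR adjusted p of 0.00612. The size turned on EPS replicate 2, without which the unblocked value was 1.23 (adjusted p = 0.166). Without EPS replicate 3 or 4 it was 2.40 either time, with edgeR adjusted p-values of 0.0472 and 0.046. The libraries numbered 1 and 2 alone gave 2.43 (adjusted p = 0.00306) and those numbered 3 and 4 alone 0.79 (adjusted p = 0.00219), both in edgeR, where 4.42% and 16.1% of all genes passed. The difference between these values was not tested.

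Summed markers of macrophages and leukocytes and of endothelium were highest in EPS replicates 1 and 2. The 8 macrophage and leukocyte markers summed to 14.8, 32.6, 9.73 and 8.91 CPM in EPS and to 7.10, 8.52, 7.08 and 5.30 CPM in control libraries. The lysosomal glycoprotein gene Cd68 made up much of the sum in EPS replicates 1 and 2 and a smaller part in EPS replicates 3 and 4. It was at 8.08, 27.0, 2.07 and 2.12 CPM in EPS and 1.46, 8.52, 1.89 and 1.48 CPM in control. In control replicate 2 it was the whole sum, from 3 fragments, and in the deep controls a smaller part. Of these 8 markers 3 were tested, and 0 passed in edgeR; with the block Cd14 was higher (0.94, SE 0.25, edgeR adjusted p = 0.0351) and Itgam lower (-1.76, SE 0.49, edgeR adjusted p = 0.0426). Adgre1 was at 0 in every library and Ptprc at 0.309 CPM at most. Cd14 was at 2.57 to 6.73 CPM in EPS and 0 to 3.94 CPM in control libraries. Itgam was at 0.259 to 2.09 CPM in EPS and 0 to 2.00 CPM in control libraries. The 5 endothelial markers summed to 4.27, 14.8, 1.14 and 1.15 CPM in EPS and to 0.921, 0, 1.26 and 1.00 CPM in control, with Emcn at 0 throughout. Pecam1 alone made up 2.16, 10.8, 0.155 and 0.0462 CPM of this in EPS and 0.0542, 0, 0.236 and 0.0478 CPM in control. Their part in the values of Nfkbiz was not tested.

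**Figure D2:**
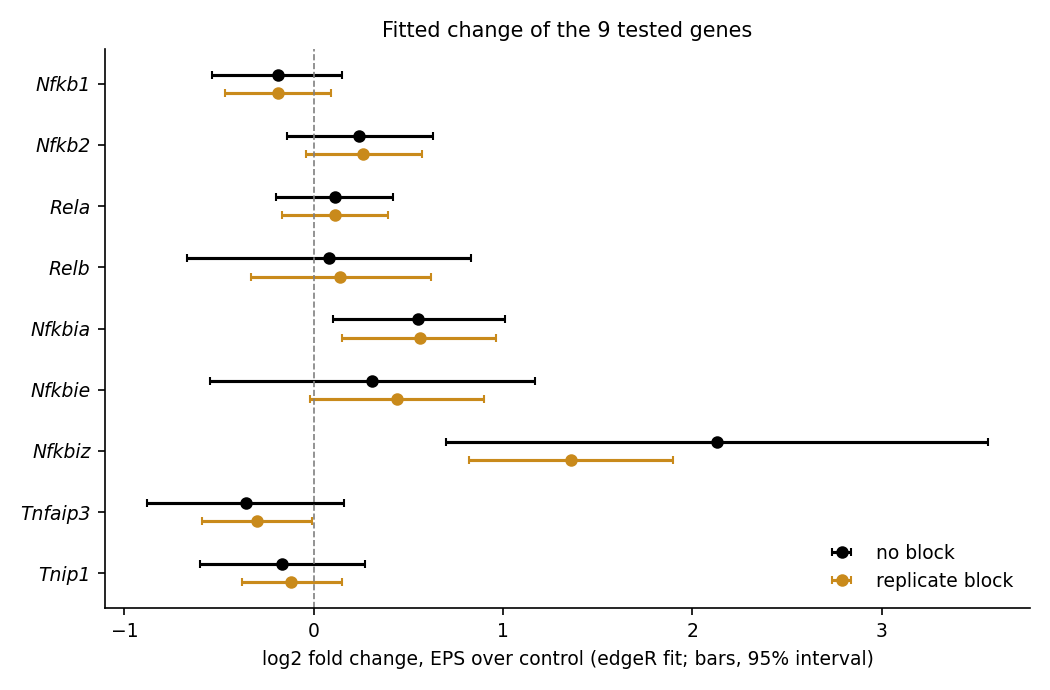
Log2 fold change of the 9 tested genes, EPS over control, from edgeR without a block (black) and with the replicate number as a block (gold), with 95% intervals. Only for Nfkbia and Nfkbiz do both intervals lie above 0, and the value of Nfkbiz is 2.13 without and 1.36 with the block.

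Both tested ubiquitin-linked regulators had negative fitted values, and neither passed the test. Tnfaip3 encodes A20, an enzyme that edits ubiquitin chains on signalling adaptors and so limits IKK activation, and it is a standard NF-kB target. It was at 27.0, 21.3, 37.1 and 40.4 CPM in EPS and at 38.4, 25.6, 41.0 and 48.2 CPM in control libraries. EPS was the lower in 4 of 4 pairs, by log2 differences of -0.51, -0.27, -0.15 and -0.25, while the ranges overlap. Pair 2 rests on 9 fragments in the shallow control. Its log2 fold change was -0.36 (SE 0.23, interval -0.88 to 0.16), with an edgeR adjusted p of 0.455, or 0.172 with the block. In 22 alternatives the value stayed negative, from -0.54 to -0.21.

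Tnip1 encodes ABIN1, a ubiquitin-binding partner of A20. It was at 71.8, 46.0, 78.8 and 71.9 CPM in EPS and at 79.7, 54.0, 81.3 and 77.5 CPM in control libraries. By CPM the pair with replicate number 2 was the lowest in both groups, and its control value rests on 19 fragments. EPS was the lower in 4 of 4 pairs, by -0.15, -0.23, -0.05 and -0.11. The log2 fold change was -0.17 (SE 0.20, interval -0.60 to 0.27, edgeR adjusted p = 0.703).

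Birc3 encodes cIAP2, a ubiquitin ligase at tumour necrosis factor receptors and a textbook NF-kB target, and it was barely detected. It had 11, 3, 10 and 3 fragments in EPS libraries and 15, 0, 9 and 6 in control libraries, too few to pass the filter on low counts. Summed over the libraries of a group, 27 fragments in EPS (exact Poisson 95% interval 17.8 to 39.3) give 0.371 CPM and 30 in control (20.2 to 42.8) give 0.572 CPM. The intervals cover counting error only. Its paralogue Birc2 was at 37.7 CPM ± 1.84 in EPS and 37.7 CPM ± 3.64 in control (SD, n = 4).

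Levels per transcript length are the deposited FPKM values. In the shallow control replicate 2 they can rank differently from CPM. Rela and Tnip1 had their lowest control CPM there. Rela was at 30.3 FPKM in that library, above the deep controls (21.4 to 27.6 FPKM), and Tnip1 at 17.4 FPKM, within them (13.9 to 18.6 FPKM). In EPS libraries the order was Nfkbiz (32.3 FPKM ± 33.0), Rela (26.3), Nfkb2 (24.6), Nfkb1 (15.6), Tnip1 (14.4), Nfkbia (9.73), Relb (6.20), Tnfaip3 (6.03), Nfkbie (3.33) and Birc3 (0.117 FPKM), as means of 4. In the 3 deep control libraries it was Rela (24.2 FPKM), Nfkb2 (21.0), Nfkb1 (18.3), Tnip1 (15.9), Tnfaip3 (8.04), Nfkbia (6.79), Nfkbiz (6.58), Relb (6.05), Nfkbie (2.80) and Birc3 (0.192 FPKM). Ranges of neighbours overlapped except, in EPS, between Nfkb2 and Nfkb1, Tnip1 and Nfkbia, Nfkbia and Relb, and Nfkbie and Birc3. In control libraries the exceptions were Tnip1 and Tnfaip3, Relb and Nfkbie, and Nfkbie and Birc3. Nfkbiz was thus first in EPS by its mean and seventh in control, and its EPS range of 9.32 to 79.8 FPKM spans several ranks.

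**Figure D3:**
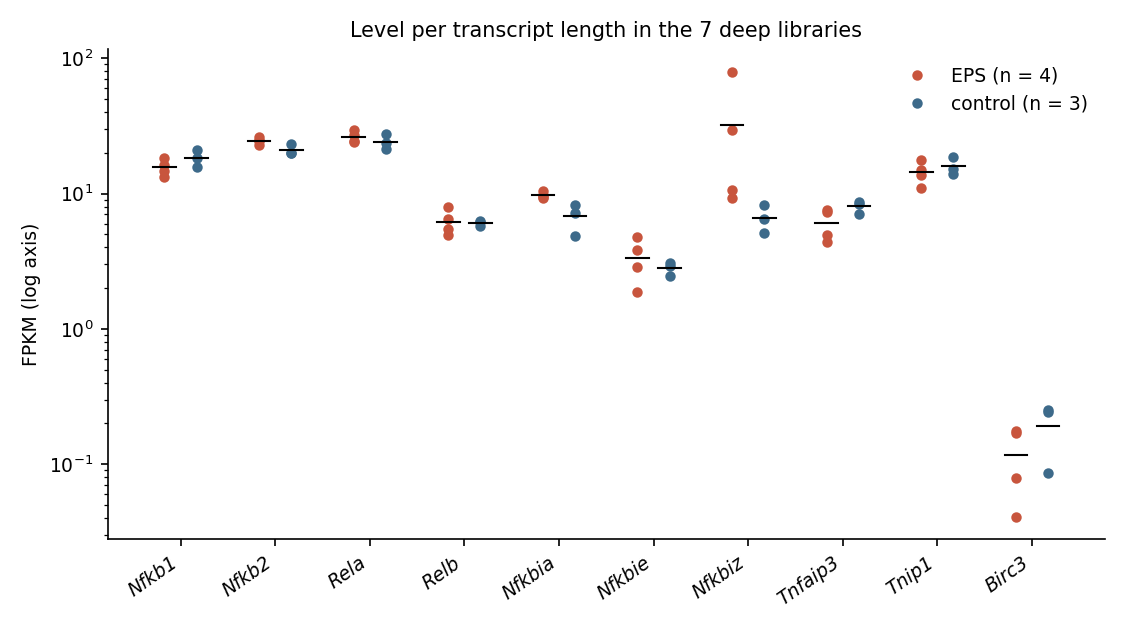
FPKM of the 10 genes on a log axis in the 7 deep libraries, EPS (n = 4) left of control (n = 3), with a line at each mean. The subunits Rela, Nfkb2 and Nfkb1 lie between 13.2 and 29.3 FPKM in both groups, Nfkbiz spreads from 9.32 to 79.8 FPKM in EPS, and Birc3 averages 0.117 FPKM in EPS and 0.192 FPKM in control.

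Ratios of FPKM within a library compare genes of the system with each other and are given as descriptions. Nfkb2 over Nfkb1 averaged 1.60 ± 0.199 in EPS (SD, n = 4, 1.43 to 1.88) and 1.15 ± 0.101 in the deep control libraries (SD, n = 3, 1.09 to 1.27). The groups did not overlap, but the 1.38 of the shallow control rests on 19 and 25 fragments. How many other gene pairs are separated so was not tested. Relb over Rela, Nfkbie over Nfkbia and Tnfaip3 over Tnip1 overlapped between EPS and the deep controls. Nfkbia over Rela averaged 0.372 ± 0.0340 in EPS (SD, n = 4) and 0.281 ± 0.0679 in the deep control libraries (SD, n = 3), whose highest, 0.337, lay above the lowest EPS library, 0.324. Nfkbiz over Nfkbia was 3.04, 7.64, 1.11 and 1.01 in EPS and 1.69, 2.73, 0.778 and 0.704 in control libraries. In both groups that ratio was higher in replicates 1 and 2 than in replicates 3 and 4.

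The genes most like Nfkbia across the 7 deep libraries, by the mean absolute difference of centred log2 CPM among 10822 genes with a mean CPM of at least 5, were Aph1b (0.0847), Prpsap2 (0.0852) and Lsm3 (0.0874). Those most like Nfkb2 were Psmd6 (0.0302), Slc30a6 (0.0338) and Casp8ap2 (0.0377). Among the NF-kB genes, Nfkb2 was closest to Nfkbia (0.194) and Nfkbiz farthest from it (0.965).

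Among other genes of the pathway (further subunits and IkB genes, kinases, receptors and adaptors, and the ubiquitin system), 2 of 58 tested rose in EPS and none fell, out of 63 listed. Over all tested genes 2.30% rose and 0.758% fell, so the count is near the background. With the block 7 rose, where 7.31% of all genes did, Map3k14, Tbk1, Il1rap, Irak4 and Traf3 being added. DESeq2 called 6 of these pathway genes higher and 0 lower, where it called 633 higher and 294 lower over all genes. The median log2 fold change of the 58 in edgeR was 0.17. Of 12 kinase genes, the 1 that rose was Ikbkg, which encodes NEMO, the regulatory subunit of the IKK complex. It was at 276, 324, 254 and 245 CPM in EPS and at 87.8, 93.8, 82.3 and 80.9 CPM in control libraries. Every EPS library thus lay above every control library, as in 9.32% of all tested genes. The log2 fold change was 1.68 (SE 0.16, edgeR adjusted p = 0.000419), and it passed in all 22 alternatives. Ikbkg shares 418 exon bases with G6pdx on the opposite strand, a gene of the pentose phosphate pathway that also rose (1.31, SE 0.23, edgeR adjusted p = 0.0155), so fragments of the pair cannot be assigned with certainty.

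Of 22 tested receptors and adaptors, Tnfrsf1a, the main receptor for tumour necrosis factor, rose. It was at 78.4, 67.6, 68.6 and 67.9 CPM in EPS and at 48.6, 25.6, 39.5 and 41.5 CPM in control libraries, with a log2 fold change of 0.79 (SE 0.17, edgeR adjusted p = 0.0368). Its call was lost in 9 of 22 alternatives. Among these were the fits without EPS replicate 1, 3 or 4 (0.74, 0.78 and 0.79, adjusted p 0.129, 0.0584 and 0.0578). Others were those without control replicate 1, 3 or 4 (0.90, 0.75 and 0.78, adjusted p 0.0697, 0.167 and 0.145). The rest were library totals alone (0.75, edgeR adjusted p = 0.0539), no filter on low counts (0.74, 0.0575) and replicates 1 and 2 alone (0.80, 0.259). The count of 2 over all these lists was 1 without EPS replicate 1 or control replicate 1, 3 or 4, and 4 without EPS replicate 3.

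Kinases that passed in edgeR with the block, and not without it when all libraries and the filter on low counts were used, were Map3k14 and Tbk1. Map3k14 encodes NIK of the non-canonical pathway, and Tbk1 an IKK-related kinase. Map3k14 was at 116, 169.9, 52.0 and 64.6 CPM in EPS and at 49.7, 25.6, 41.9 and 40.7 CPM in control libraries (block log2 fold change 0.95, SE 0.24, edgeR adjusted p = 0.0303). Tbk1 was at 134, 209.8, 75.7 and 81.5 CPM in EPS and at 62.6, 62.5, 49.7 and 55.3 CPM in control libraries (0.91, SE 0.18, edgeR adjusted p = 0.0093). Both had their highest values in EPS replicates 1 and 2, as Nfkbiz did. In both, every EPS library lay above every control library, as in 9.32% of all tested genes. Without the block their edgeR adjusted p-values were 0.0838 and 0.0787. Unblocked edgeR fits gave 0.0422 and 0.0424 with no filter on low counts, and 0.0308 and 0.036 without EPS replicate 3. DESeq2 without a block gave 0.0115 and 0.0162. Map3k14 shares 135 exon bases with 1700028N14Rik on the same strand, so fragments there could belong to either gene. Both genes, like those named with the block above, were singled out after their values were seen.

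Of the remaining subunits and IkB genes, 0 of 4 tested passed in edgeR, with or without the block, and in edgeR 1 had an unadjusted p under 0.05, as did 18.5% of all tested genes. That gene was Rel, encoding c-Rel, at 15.9, 34.5, 8.07 and 6.19 CPM in EPS and 9.26, 8.52, 4.64 and 5.54 CPM in control libraries (log2 fold change 1.28, SE 0.53, edgeR adjusted p = 0.23). Without EPS replicate 2 its log2 fold change was 0.59 (adjusted p = 0.498 in edgeR), and with the block it was 0.67 (adjusted p = 0.0671 in edgeR). Nfkbib, encoding IkB beta, was at 18.9 CPM ± 1.47 in EPS and 18.1 CPM ± 1.04 in control (SD, n = 4), a log2 fold change of 0.05 (interval -0.30 to 0.39) whose sign changed with scaling and filter, to -0.01. Of 20 ubiquitin-system genes and other brakes, 0 passed in edgeR with or without the block, 4 had an unadjusted p under 0.05 (18.5% of all tested genes did), and the most abundant, Rnf11, an A20 partner, had -0.15 (interval -0.63 to 0.32).

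**Figure D4:**
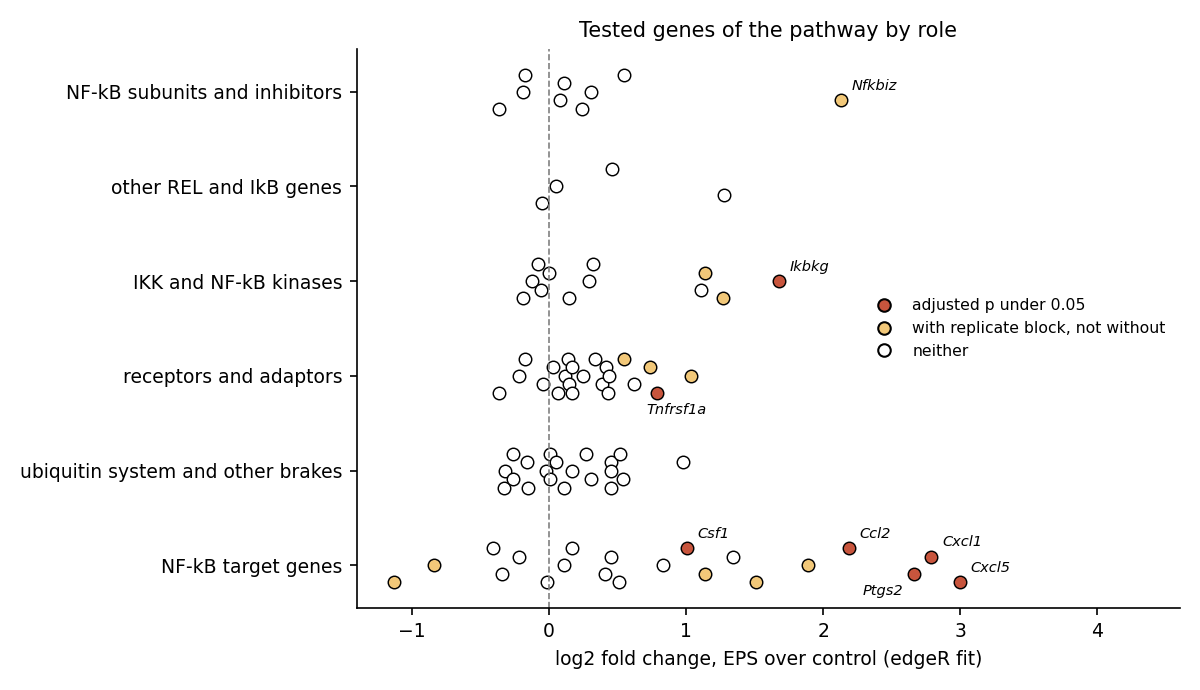
Log2 fold change of each tested gene, EPS over control, by role. Filled red points passed an adjusted p of 0.05 in edgeR, yellow points passed with the replicate block and not without it, and open points passed neither. Names mark the genes in red and Nfkbiz. Most points of the subunits, inhibitors and ubiquitin system lie near 0, and the target genes reach 3.00.

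Downstream, 21 of 28 listed NF-kB target genes were tested. Of the 21, 5 rose in EPS and none fell, against 2.30% and 0.758% of all tested genes. Their median log2 fold change was 0.51, with 15 values positive and 6 negative. The other 16 were not called, among them Il6 (0.41, edgeR adjusted p = 0.775) and Sod2 (-0.01, edgeR adjusted p = 0.99). That list was drawn up with earlier results of these data known, so the count of 5 is not independent evidence of its direction. The cyclooxygenase gene Ptgs2 was at 288, 443, 104 and 119.9 CPM in EPS and at 31.9, 48.3, 35.3 and 41.3 CPM in control libraries (log2 fold change 2.66, SE 0.45, edgeR adjusted p = 0.0123). Csf1, a growth factor for macrophages, was at 365, 417, 242 and 293 CPM in EPS and at 184, 131, 152 and 178 CPM in control libraries (1.01, SE 0.20, edgeR adjusted p = 0.0285). Neither gene had overlapping groups, and EPS lay wholly above control, as in 9.32% of all tested genes. The neutrophil chemokine Cxcl5 was low, at 1.42 CPM ± 0.0988 in EPS and 0.128 CPM ± 0.0865 in control (SD, n = 4), with a log2 fold change of 3.00 (SE 0.41, edgeR adjusted p = 0.00426). The chemokines Ccl2 (2.19, SE 0.47, adjusted p = 0.0362) and Cxcl1 (2.79, SE 0.58, adjusted p = 0.0317), named after their values were seen, were the others that rose in edgeR.

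With the block the target counts were 8 higher and 2 lower, where 7.31% and 4.78% of all tested genes were. The genes added on the higher side were Il1b (block log2 fold change 2.16), Gadd45b (0.82) and Ier3 (1.33), and those lower were Plau (-1.13) and Lif (-0.69), with edgeR adjusted p-values between 0.00114 and 0.0384. The count of 5 was 2 without EPS replicate 1 and 1, Cxcl5, without control replicate 1, 3 or 4. Tnf itself had 24 fragments in EPS and 2 in control libraries in all, 14 of the 24 in EPS replicate 2, and was not tested.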

How the data were processed

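RNA of 4 EPS and 4 control libraries was measured on total RNA, and each library has 2 lanes among the 16 samples, with 1 value per gene and library in the deposited table. Groups and replicate numbers came from the sample titles. Separate cultures are not stated for the libraries of a group, and p-values therefore reflect the spread among them, possibly a technical one. Tools listed in the submitters' processing notes are Cuffdiff 2.2.1, Cufflinks and STAR 2.5.1, with the build mm10. The columns used hold, per the file headers, the authors' estimated counts (unscaled fragments per gene) and their deposited FPKM, scaled by Cuffdiff. Whole numbers made up 93.3% of the deposited estimated counts above 0, and the rest were rounded. Genes marked as skipped for excess fragments (46) were left out, and 48051 of 48432 identifiers had a symbol in a GENCODE annotation of the same build.

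Genes were filtered with filterByExpr (minimum count 10, minimum total 15) and scaled by TMM, and the quasi-likelihood test of edgeR 4.0.16 was run in R 4.3.3 without covariates, with limma 3.58.1 for FPKM. Adjusted p-values are Benjamini-Hochberg values over 13987 genes, with a threshold of 0.05. Fold changes are fitted values and need not equal ratios of mean CPM, and standard errors are approximate. A prior count of 2 entered log2 CPM. Alternatives were DESeq2 1.42.0, other scalings and filters, length and GC offsets, limma on log2(FPKM + 1) and log2(FPKM + 0.1), subsets of replicates, and, chosen after seeing the data, leaving out both libraries numbered 2 without a block.

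Both groups carry the numbers 1 to 4, and the labels do not say what they stand for. Deviations from the group mean, correlated across genes between libraries of equal number, gave 0.30, 0.21, 0.29 and 0.30. EPS replicate 3 with control replicate 4 gave 0.25 and EPS replicate 4 with control replicate 3 gave 0.23, above the 0.21 of pair 2, so replicates 3 and 4 were not set apart from each other. Every correlation of equal numbers was above 0.1, so the numbers were taken as pairs, from the data and not from the design. A fit with the number as a block was set beside the unblocked one. How many of all genes had EPS higher, or lower, in every pair was not counted. The genes, lists and tests were chosen with earlier results of these data known. Other genes were named by a rule, as up to 3 called genes with the smallest adjusted p per list, or the most abundant where none was called.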

Additional observations from a re-analysis of the deposited data

Results flagged for a closer look

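In 5 of 34 groups of 4 libraries, 1 library lay farther from its neighbour, relative to the range of the group, than Dixon's 95% critical value for 4 libraries allows. Chance gives about 1 in 20. Rela was at 101 CPM in EPS replicate 3, with the next library at 92.1 CPM. Tnfrsf1a was at 78.4 CPM in EPS replicate 1, with the next at 68.6 CPM. Rnf11 was at 577 CPM in EPS replicate 2, with the next at 381 CPM, and at 605 CPM in control replicate 2, with the next at 437 CPM. Tnip1 was at 54.0 CPM in control replicate 2, with the next at 77.5 CPM. The last 2 values come from the shallow library.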

How the results depend on the processing

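The replicate block raised the calls over all genes to 1023 higher and 668 lower, against 322 and 106 without pairing. It gave 1 higher among the NF-kB genes (against 0), 7 higher among other pathway genes (2) and 8 higher and 2 lower among targets (5 and 0), and it changed the call of no NF-kB gene but Nfkbiz. With length and GC offsets as well, the counts were 1076 and 980 over all genes, 1, 9, and 9 and 2, and without pair 2 they were 1290 and 1167, 1, 9 higher and 2 lower, and 8 and 3. DESeq2 gave 633 and 294 over all genes, 6 for the pathway and 8 and 1 for targets. Without a filter 162 genes were lower over all genes, 1 NF-kB gene was higher and 1 target was lower. With length and GC offsets alone 396 were higher and 263 lower, and 1 target was lower, and without pair 2 or a block 325 genes were lower. Library totals alone gave 1 for the pathway. Limma gave 133 and 50 on log2(FPKM + 1) with 3 targets, 89 and 34 on log2(FPKM + 0.1) with 1, and 51 and 15 without a filter with 1. Replicates 1 and 2 alone gave 510 higher, 1 NF-kB gene higher and 1 target lower. Replicates 3 and 4 alone gave 1156 and 1121, 1 NF-kB gene higher and 1 lower, 10 and 2 for the pathway, and 9 and 2 for targets. Leaving out 1 library gave 92 to 427 higher and 22 to 167 lower over all genes, 0 to 1 NF-kB genes higher, 1 to 4 pathway genes higher, 1 to 6 targets higher and 0 to 1 lower. Relb reversed to -0.04, -0.02 and -0.05 without EPS replicate 3, EPS replicate 4 and control replicate 2. Among the fits leaving out 1 library, Relb was highest, at 0.25, without control replicate 4. In the 3 limma fits on FPKM it was far higher, at 0.72 or more, with control replicate 2 at 0 FPKM. Nfkbib, at 0.05, reversed to -0.01 with upper-quartile scaling and without a filter, to -0.05, -0.06 and -0.05 in the 3 limma fits, and to -0.07 in replicates 3 and 4 alone, and lay between -0.00 and 0.07 when 1 library was left out. The other 8 tested NF-kB genes kept their sign in 22 alternatives. The cause of these shifts was not tested. Depth limits Relb, Nfkbie and Birc3, at 0 fragments in control replicate 2, and Nfkbia, at 3 fragments there.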
